A study of Mus musculus with 6 samples.

Results

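The genes described here make nitric oxide, supply or use up its precursor arginine, or carry its signal. They are the neuronal, inducible and endothelial nitric oxide synthases (Nos1, Nos2, Nos3), the arginine-making enzymes Ass1 and Asl, the arginases Arg1 and Arg2, the methylarginine hydrolase Ddah1, the cyclic GMP phosphodiesterase Pde5a and the cyclic GMP-dependent kinase Prkg1. They were taken by symbol from a table of 26329 genes, and all 10 were found. They were chosen by symbol with the fold changes and p values of ISRIB against Control in this table already known, so the fold changes and adjusted p values of these 10 genes are a description and not a test of them as a set. RNA of cultured mouse ovary was sequenced in 3 libraries treated with ISRIB dissolved in DMSO and 3 libraries given DMSO (Control). ISRIB is a small molecule that acts on the initiation factor eIF2B and lifts the block that the integrated stress response places on translation. The study's title asks whether inhibition of this response activates primordial follicles, the resting oocyte reserve, through mTOR. No source used here gives the dose, the culture time, or the age and strain of the cultured ovaries. Nor is it stated whether the libraries came from separate animals, so the p values reflect only how much these libraries differ, which may be technical.

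Nitric oxide synthases oxidise arginine to nitric oxide and citrulline. Citrulline is turned back into arginine by argininosuccinate synthase and lyase, while arginases compete for arginine and cleave it to ornithine and urea. Nitric oxide activates soluble guanylate cyclase, and the cyclic GMP formed acts through kinases such as the product of Prkg1 until phosphodiesterases such as the product of Pde5a break it down. In the ovary, nitric oxide is known for its part in vessel tone and ovulation, and cyclic GMP, made largely by the natriuretic peptide receptor Npr2, for holding oocytes in meiotic arrest.

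Levels are FPKM as deposited by the authors, that is, fragments scaled to gene length and library size. Whole reads worked back from these values added up to 35942909 to 37100425 in the ISRIB libraries and 34721862 to 38278206 in the Control libraries. The label of ovary held: the 12 oocyte markers summed to 1690 to 1870 FPKM in ISRIB and 1500 to 1700 in Control, and the 8 granulosa cell markers to 471 to 611 and 420 to 518 FPKM. ISRIB replicate 1 stood apart in red cell genes, whose 6 markers summed to 328 FPKM there, to 75.8 and 72.4 in ISRIB replicates 2 and 3, and to 40.5 to 75.3 in Control. Of the 12922 genes with a mean of at least 1 FPKM, 0 passed limma at an adjusted p under 0.05 (0.0% called), 2125 had an unadjusted p under 0.05, and 120 passed in limma's voom on the recovered reads (0.929% called). That voom count was 0 without Control replicate 1 or without Control replicate 2, and 365 without ISRIB replicate 1. Fold changes went down with gene length across all genes (Spearman rho −0.361 across genes, which are not independent replicates), so values after removal of that trend are given where they matter.

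Upstream sequences, 250 bases up to the RefSeq transcription start (GRCm38.p6), were matched for 5 of the 10 genes: Nos1, Ass1, Ddah1, Pde5a and Prkg1. Nos1 and Prkg1 are shown because both were lower in all 3 ISRIB libraries, and Ass1 because its window holds the most matches. Capitals mark matches, on either strand, to the hypoxia response element core ACGTG or GCGTG, the C/EBP-ATF response element TGATGCAAT or the CCAAT box.
Nos1, plus strand, chr5:117866589-117866838: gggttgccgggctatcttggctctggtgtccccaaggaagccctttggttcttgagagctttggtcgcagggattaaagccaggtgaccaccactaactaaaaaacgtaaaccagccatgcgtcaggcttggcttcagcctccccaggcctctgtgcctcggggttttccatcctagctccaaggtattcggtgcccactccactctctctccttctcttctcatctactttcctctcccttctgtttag
Prkg1, minus strand, chr19:31765034-31765283: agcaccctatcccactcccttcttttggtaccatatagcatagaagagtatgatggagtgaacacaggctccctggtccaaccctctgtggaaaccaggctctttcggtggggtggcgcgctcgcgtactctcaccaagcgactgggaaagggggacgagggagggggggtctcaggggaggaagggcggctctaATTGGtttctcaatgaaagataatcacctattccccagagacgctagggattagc
Ass1, plus strand, chr2:31470020-31470269: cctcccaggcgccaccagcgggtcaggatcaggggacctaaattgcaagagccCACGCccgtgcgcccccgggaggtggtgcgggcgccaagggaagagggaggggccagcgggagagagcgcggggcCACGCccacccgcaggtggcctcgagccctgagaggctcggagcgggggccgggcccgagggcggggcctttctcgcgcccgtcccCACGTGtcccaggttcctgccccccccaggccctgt
The Nos1 window held none of the 4 motifs. It lies well inside the longer gene span that GENCODE M21 gives, which begins at 117781032. The sequence before that position was not searched, so nothing is said of motifs there. The Prkg1 window held 1 CCAAT box on the opposite strand, 55 bases before the start, and a second RefSeq start of Prkg1 had no match. Ass1 held GCGTG on the opposite strand 197 and 122 bases before its RefSeq start, and ACGTG on both strands 35 and 36 bases before it. Those 2 ACGTG matches overlap in CACGTG, which reads the same on both strands. They lie after the start that GENCODE M21 gives for Ass1, 31470207. The Ddah1 window held 1 GCGTG and the Pde5a window no match. Both windows also run past the GENCODE M21 starts of these genes, 145758675 and 122728947. Of all 32851 windows in the table, ACGTG was in 16.57%, GCGTG in 28.16%, CCAAT in 33.85% and TGATGCAAT in 0.17%.

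Nos1 was the most abundant of the 10 genes in Control, and Nos1 and Nos3 were the nitric oxide synthases with no overlap between the groups. Nos1 makes the neuronal enzyme (chromosome 5, 117781032 to 117958840, plus strand, GRCm38). It measured 15.4, 16.0 and 13.2 FPKM in ISRIB replicates 1 to 3, against 20.0, 22.5 and 19.7 FPKM in Control replicates 1 to 3. Every ISRIB library lay below every Control library. The mean was 14.9 ± 1.48 FPKM in ISRIB and 20.7 ± 1.53 in Control (SD, n = 3 each). On the log2(FPKM + 0.5) scale the fold change was −0.47 (SE 0.0836, 95% interval −0.66 to −0.27), with a limma adjusted p of 0.0987 over all genes. The values rest on 4624 to 5786 reads in ISRIB and 6752 to 8368 in Control, so counting error was 1.4% and 1.2% of the level. The spread between the Control libraries was 7.4%, and that between the ISRIB libraries was larger. At 9695 bases, Nos1 is longer than 91.9% of the genes tested, and its log2 fold change was −0.41 after removal of the length trend (adjusted p = 0.192). In voom on the recovered reads it was −0.48 with an adjusted p of 0.0252, and 0.0694 once the length trend was also removed. That voom call held without ISRIB replicate 1 (adjusted p = 0.0230) and was lost without any one of the other 5 libraries (0.0537 to 0.178).

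Nos3, whose product makes nitric oxide in the vessel wall (chromosome 5, 24364810 to 24384474, plus strand), measured 12.6, 13.9 and 14.1 FPKM in ISRIB and 16.6, 16.5 and 18.4 FPKM in Control. Again every ISRIB library lay below every Control library, with means of 13.5 ± 0.858 and 17.2 ± 1.06 FPKM (SD, n = 3 each). The log2 fold change was −0.33 (SE 0.0672, 95% interval −0.49 to −0.18, limma adjusted p = 0.0995), and it was −0.33 after removal of the length trend. In voom the adjusted p was 0.0490, just under the threshold, and 0.0949 with the length trend removed. It was 0.0498 without ISRIB replicate 1 and 0.0983 to 0.189 without any one of the others. The antisense gene Gm15587 shares 1040 exon bases with Nos3 and is not among the genes measured, so its level is not known. A further antisense neighbour, the autophagy gene Atg9b, shares 294 exon bases with Nos3. Its level was 0.351 to 0.535 FPKM in ISRIB and 0.393 to 0.771 in Control, far below that of Nos3, and whether reads were counted by strand is not stated.

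Of 16 markers of endothelial cells, in which Nos3 is mainly made, 0 passed in limma or in voom. At an unadjusted limma p under 0.05, 5 were lower in ISRIB and 0 higher, where 7.73% and 8.71% of all genes were. The mean log2 value in ISRIB was lower for 14 of the 16, where it was lower for 6226 of all 12922 genes. All ISRIB libraries lay below all Control libraries for 6, where 12.0% of all genes did, and the groups overlapped for the other 10. The summed level of the markers was 287 to 335 FPKM in ISRIB and 326 to 362 in Control, which overlapped, and none was at 0. In bulk tissue, fewer cells of a type and less RNA per cell cannot be told apart. Nos3 came to 4.38%, 4.30% and 4.22% of that sum in the ISRIB libraries, against 5.08%, 5.08% and 5.09% in the Control libraries. Which marker served as the measure mattered. Against the junction cadherin Cdh5 the Nos3 level was 39.1%, 37.3% and 39.7% in ISRIB and 40.3%, 39.8% and 41.6% in Control, groups that did not overlap but lay close together. Against the VEGF receptor Kdr it was 58.8%, 66.3% and 63.3% in ISRIB and 67.3%, 66.1% and 70.9% in Control, which overlapped. In all, the Nos3 level relative to the marker was lower in every ISRIB library for 10 of the 16 markers and overlapped for the other 6. Nos3 itself was lower in every ISRIB library and was chosen with that known. These ratios are therefore a description and not a test. No such count was made for other genes, and the length trend was not removed from the levels used.

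Nos2, which codes for the enzyme induced in inflammation (chromosome 11, 78920787 to 78960254, plus strand), measured 7.81, 10.4 and 9.83 FPKM in ISRIB and 9.74, 10.6 and 10.1 FPKM in Control. The groups overlapped, with ISRIB replicate 1 the lowest of the 6. The log2 fold change was −0.12 (95% interval −0.35 to 0.11, limma adjusted p = 0.581), and it was −0.00 without ISRIB replicate 1. The 3 synthases together summed to 35.8, 40.3 and 37.2 FPKM in ISRIB, against 46.3, 49.6 and 48.2 FPKM in Control. Nos1 made up 43.1%, 39.7% and 35.5% of the sum in ISRIB and 43.1%, 45.3% and 40.9% in Control. Nos3 made up 35.1%, 34.5% and 38.0% in ISRIB and 35.8%, 33.3% and 38.2% in Control, which overlapped. Nos2 made up 21.8%, 25.8% and 26.4% in ISRIB, all above the 21.0%, 21.4% and 20.9% in Control. The sum holds Nos1 and Nos3, both lower in every ISRIB library and chosen with that known. A higher share of Nos2 therefore does not mean a higher level of Nos2, and sum and shares are a description and not a test.

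**Figure D1:**
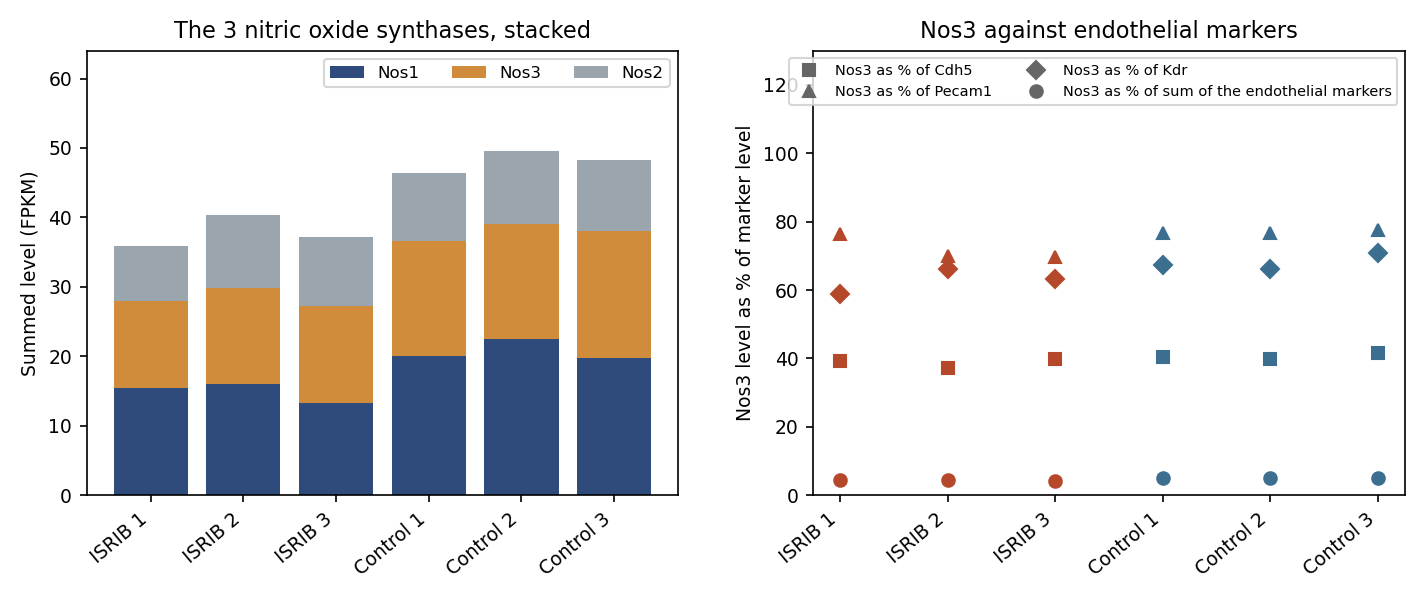
Left, level in FPKM of Nos1, Nos3 and Nos2 stacked for each library, ISRIB libraries before Control libraries; the 3 ISRIB stacks reach 35.8 to 40.3 FPKM and the 3 Control stacks 46.3 to 49.6 FPKM. Right, Nos3 level as a percentage of Cdh5, Pecam1, Kdr or the sum of 16 endothelial markers in each library, in which the sum gives 4.22% to 4.38% in ISRIB and 5.08% to 5.09% in Control.

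Among the enzymes that remake arginine from citrulline, Asl was higher in every ISRIB library and Ass1 was not. Asl, argininosuccinate lyase, catalyses the second step (chromosome 5, 130011258 to 130029247, minus strand). It measured 12.7, 13.2 and 14.1 FPKM in ISRIB and 10.6, 10.7 and 10.5 FPKM in Control. The means were 13.3 ± 0.737 and 10.6 ± 0.0946 FPKM (SD, n = 3 each), and the log2 fold change was 0.31 (SE 0.0565, 95% interval 0.18 to 0.44, limma adjusted p = 0.0987). After removal of the length trend it was 0.28 (adjusted p = 0.195), and in voom 0.33 (adjusted p = 0.0650). The Control libraries lay closer together (0.9% of the mean) than the 3.3% that counting error alone gives for their 878 to 971 reads, so their spread understates the error.

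Ass1, argininosuccinate synthase, the first and slower step (chromosome 2, 31470207 to 31520672, plus strand), measured 12.0, 18.0 and 15.4 FPKM in ISRIB and 17.9, 14.3 and 16.3 FPKM in Control. The ISRIB libraries held both the lowest and the highest value. The log2 fold change was −0.11 (SE 0.141, 95% interval −0.43 to 0.22, limma adjusted p = 0.746), and 0.05 without ISRIB replicate 1. The level of Asl relative to Ass1 was 1.06, 0.732 and 0.918 in ISRIB and 0.594, 0.746 and 0.644 in Control, with ISRIB replicate 2 below Control replicate 2.

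Of the 10 genes, only Prkg1 had a lower mean level than the arginases, in ISRIB and in Control. Arg2, the mitochondrial arginase (chromosome 12, 79130777 to 79156301, plus strand), measured 3.34, 3.39 and 4.69 FPKM in ISRIB and 2.81, 2.76 and 2.68 FPKM in Control. All ISRIB libraries lay above all Control libraries, with replicate 3 highest. The log2 fold change was 0.39 (SE 0.124, 95% interval 0.11 to 0.68, limma adjusted p = 0.193), 0.32 after removal of the length trend, and 0.25 without ISRIB replicate 3. Only 172 to 240 reads in ISRIB and 139 to 150 in Control lay behind these values, and the Control spread of 2.4% was under the counting error of 8.3%. Arg2 shares 285 exon bases with Vti1b, a vesicle fusion gene on the opposite strand, which had 11.1 to 11.8 FPKM in ISRIB and 11.2 to 12.4 in Control.

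Arg1, the cytosolic arginase of liver and of some macrophages (chromosome 10, 24915221 to 24927484, minus strand), varied most between libraries. It measured 4.82, 2.40 and 1.22 FPKM in ISRIB and 2.76, 1.62 and 2.92 FPKM in Control. ISRIB replicates 1 and 3 were the highest and the lowest of all 6 libraries, with 259 and 65 reads. The spread was 65.3% of the mean in ISRIB and 29.1% in Control, against counting errors of 9.5% and 8.9%. The log2 fold change was 0.05 with a 95% interval of −0.81 to 0.92 (limma adjusted p = 0.956), and −0.36 without ISRIB replicate 1. That library also had the red cell genes at 328 FPKM, with 3 of 6 markers over a mean of 1 FPKM and none at 0 throughout. The 10 macrophage and leukocyte markers summed there to 65.6 FPKM, against 69.4 and 68.0 in ISRIB replicates 2 and 3 and 65.4 to 73.4 in Control. Of the 7 of them tested, 5 had a lower and 2 a higher mean log2 value in ISRIB, with a median log2 fold change of −0.20. For 3 all ISRIB libraries lay below Control and for 0 all lay above, where 12.0% and 10.8% of all genes did. In limma and in voom 0 passed. The part of either cell type in the Arg1 level was not tested. Arg2 made up 40.9%, 58.6% and 79.4% of the summed arginase level in ISRIB and 50.5%, 63.0% and 47.8% in Control.

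Ddah1, which breaks down the methylarginines that inhibit nitric oxide synthases (chromosome 3, 145758675 to 145894277, plus strand), measured 6.25, 5.45 and 6.03 FPKM in ISRIB and 6.36, 6.11 and 5.75 FPKM in Control. The groups overlapped, with a log2 fold change of −0.04 (95% interval −0.21 to 0.13, limma adjusted p = 0.838). Pde5a (chromosome 3, 122728947 to 122859374, plus strand) measured 6.67, 5.85 and 5.92 FPKM in ISRIB and 6.45, 6.81 and 6.23 FPKM in Control. Here too the groups overlapped, with a log2 fold change of −0.08 (95% interval −0.24 to 0.09, limma adjusted p = 0.646). These intervals leave room for differences of up to −0.21 and −0.24 on the log2 scale.

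Prkg1, the kinase that cyclic GMP activates in smooth muscle (chromosome 19, 30564489 to 31765033, minus strand), had a mean of 0.451 FPKM and did not reach the minimum of 1 FPKM for the fit. Its level was 0.412, 0.373 and 0.341 FPKM in ISRIB and 0.579, 0.526 and 0.473 FPKM in Control, on 92 to 112 and 136 to 151 reads. All ISRIB libraries lay below all Control libraries, by a ratio of means of 0.713. When all genes were fitted, its log2 fold change was −0.23 (limma adjusted p = 0.435) with the pseudocount of 0.5, which is as large as the level itself, and −0.48 (adjusted p = 0.440) in voom. Of 12 pericyte and smooth muscle markers, 8 had a lower and 4 a higher mean log2 value in ISRIB. For 4 all ISRIB libraries lay below Control and for 1 all lay above, where 12.0% and 10.8% of all genes did. In limma 0 passed, and in voom 4 did, where 0.929% of all genes passed. Without Control replicate 1 or without Control replicate 2, voom called 0 of all genes. Those with all ISRIB libraries below were Abcc9 (log2 fold change −0.44), Mcam (−0.34), Pdgfrb (−0.33) and Cspg4 (−0.30). The 4 with a higher value were the contractile genes Tagln (log2 fold change 0.26, all ISRIB libraries above), Acta2 (0.21), Cnn1 (0.21) and Myh11 (0.07). Both sets were named after their values were seen. The 12 markers summed to 138 to 147 FPKM in ISRIB and 155 to 167 in Control, with none at 0. Their part in the Prkg1 level was not tested.

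**Figure D2:**
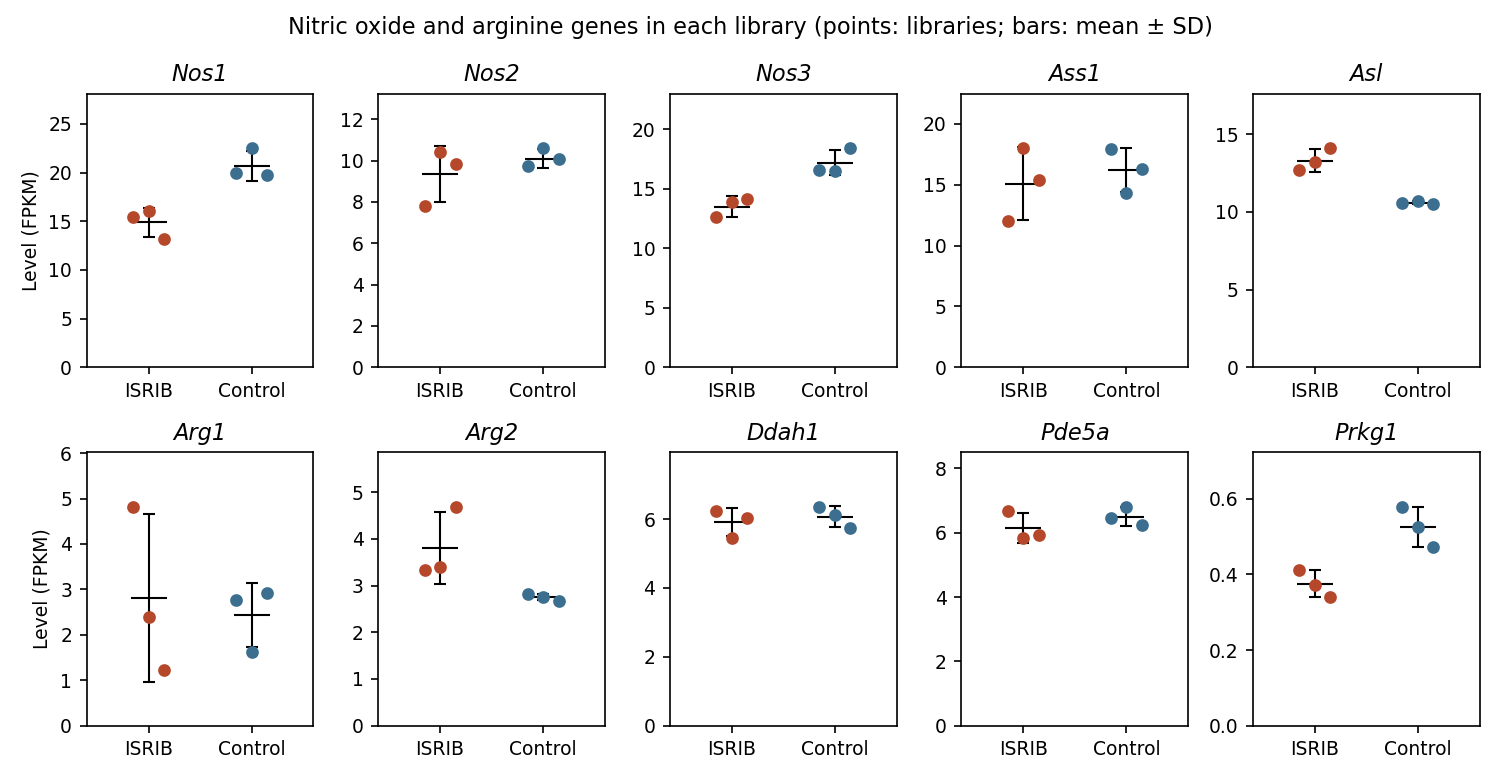
Level in FPKM of each of the 10 genes in each library, with ISRIB left of Control, points for libraries and bars for the mean ± SD (n = 3 each); every axis starts at 0 and has its own scale. Nos1, Nos3 and Prkg1 have all ISRIB points below the Control points, Asl and Arg2 all above, and Arg1 spreads from 1.22 to 4.82 FPKM within ISRIB.

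Of the 9 genes tested, 2 had all ISRIB libraries below Control (Nos1, Nos3) and 2 all above (Asl, Arg2), where 12.0% and 10.8% of all 12922 genes did, together 22.8%. Because the genes were chosen with this contrast known, nothing is read from that share. At an unadjusted p under 0.05 there were 2 lower and 2 higher, against 7.73% and 8.71% of all genes. The median log2 fold change of the 9 was −0.08, and −0.03 after removal of the length trend, beside 0.01 for all genes tested. By rank of p among the 12922 genes, Nos1 was number 69, Asl 70, Nos3 139 and Arg2 896.

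**Figure D3:**
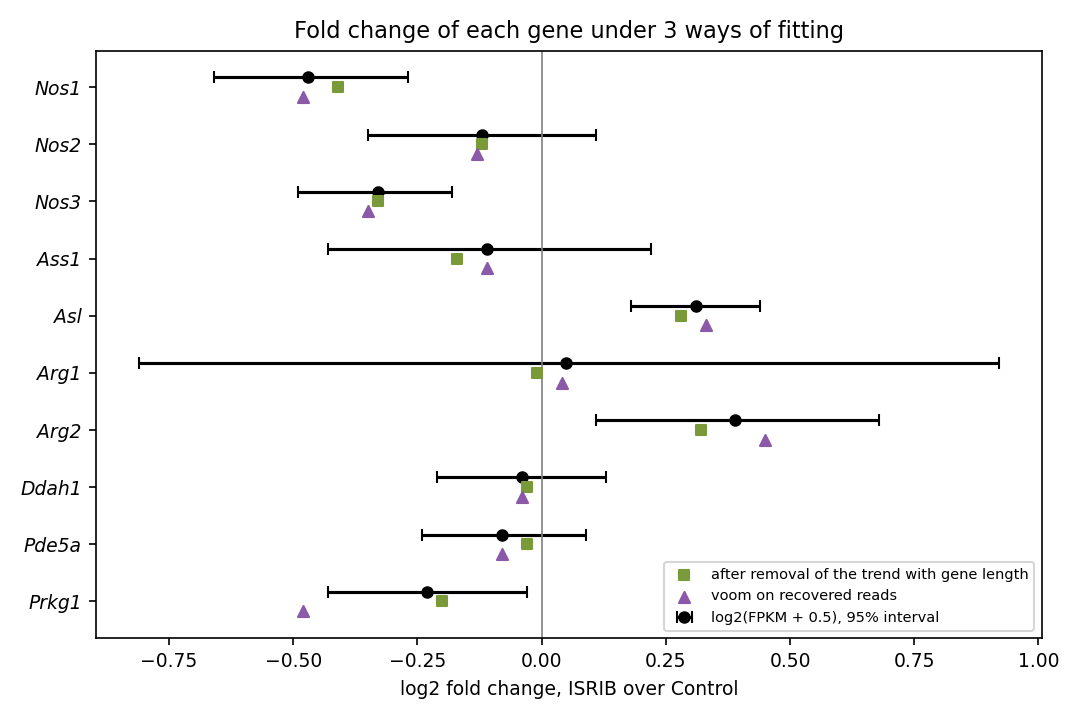
log2 fold change of ISRIB over Control for each gene on the log2(FPKM + 0.5) scale with its 95% interval (circles), after removal of the trend with gene length (squares) and from voom on recovered reads (triangles); Prkg1 comes from fits of all genes. The intervals of Nos1 and Nos3 lie below 0 and those of Asl and Arg2 above it, and that of Arg1 spans −0.81 to 0.92.

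The order of levels, given as a description, was not the same at the top in both groups. In ISRIB, Ass1 (15.1 ± 3.02 FPKM), Nos1 (14.9), Nos3 (13.5) and Asl (13.3) formed a run in which each gene's range overlapped that of the next. In Control, Nos1 (20.7 ± 1.53 FPKM) stood clear of Nos3 (17.2), Nos3 overlapped Ass1 (16.2), and Ass1 stood clear of Asl (10.6), which overlapped Nos2 (10.1). Below these, both groups had the same sequence of Nos2, Pde5a, Ddah1, Arg2, Arg1 and Prkg1, in which Pde5a overlapped Ddah1 and Arg2 overlapped Arg1. Nos1 lay above 84.2% of all 26329 genes and Prkg1 above 45.1%.

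The genes whose profile over the 6 libraries was nearest to that of Nos1, the gene with the largest absolute log2 fold change of the 9, were Rab11fip4, Tdrd9 and Dnah9. Their root-mean-square distances were 0.0544, 0.0626 and 0.0661 on the log2(FPKM + 0.5) scale after centring, in a search of 12922 genes. Rab11fip4, an effector of the trafficking GTPase Rab11, had 6.44, 6.43 and 5.10 FPKM in ISRIB and 7.38, 8.78 and 7.67 in Control. Tdrd9, a helicase that silences transposons in the mouse germ line, had 9.56, 10.7 and 8.02 FPKM in ISRIB and 12.0, 13.0 and 12.5 in Control. Dnah9, an axonemal dynein chain, had 1.86, 1.91 and 1.36 FPKM in ISRIB and 2.16, 2.57 and 2.27 in Control. Each shares with Nos1 the lowest value in ISRIB replicate 3 and the highest in Control replicate 2.

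Around these 10 genes, 84 others of the pathway were in the table, and 68 of them reached a mean of 1 FPKM. None passed over all genes tested in limma (0 of 68) or in voom (0 of 68), and 30 had a higher and 38 a lower mean log2 value in ISRIB, with a median of −0.01. At an unadjusted p under 0.05, 7 of the 68 were higher and 2 lower, where 8.71% and 7.73% of all genes were. All 7 listed genes that make or recycle tetrahydrobiopterin, the cofactor of nitric oxide synthases, or regulate its making had a positive log2 fold change. Their median was 0.11, but only 5 were positive after removal of the length trend. Qdpr, which recycles the cofactor, had a log2 fold change of 0.07, and −0.01 after removal of the length trend. The genes for proteins that bind nitric oxide synthases had small differences in RNA level. Of 10, 4 had a positive and 6 a negative log2 fold change (3 and 7 after TPM rescaling), between −0.11 and 0.08, with the calmodulin gene Calm3 at −0.08 and the light chain Dynll1 at 0.06.

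On the cyclic GMP side, Nppc had the largest absolute log2 fold change of the 68. It codes for C-type natriuretic peptide, the ligand of Npr2 that granulosa cells make. It measured 22.3, 11.6 and 14.6 FPKM in ISRIB and 8.28, 10.8 and 10.2 FPKM in Control, with all ISRIB libraries above and replicate 1 far ahead (log2 fold change 0.66, SE 0.209, limma adjusted p = 0.193). Without ISRIB replicate 1 the log2 fold change of Nppc was 0.41. Of 9 cyclases and peptides listed, 5 were tested, and 4 had a positive value (3 after TPM rescaling). The soluble cyclase subunit Gucy1b1 had 0.21 (limma adjusted p = 0.298) with groups that overlapped. Of 11 cyclic GMP effectors and phosphodiesterases tested, 9 had a negative log2 fold change and 7 did after removal of the length trend, with medians of −0.10 and −0.05. Pde2a, a phosphodiesterase stimulated by cyclic GMP, had −0.23 (limma adjusted p = 0.238), and Rgs2, a regulator of G protein signalling, had 0.25 (limma adjusted p = 0.254).

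On the arginine side of the pathway, the 6 tested transporters had a median of −0.03, with the heavy chain Slc3a2 at 0.16 and the basic amino acid carrier Slc7a7 at −0.21, and the groups overlapped for both. Of 17 tested genes of ornithine and polyamines, 8 had a positive and 9 a negative log2 fold change, and 5 and 12 did after TPM rescaling or removal of the length trend. There Sat1, the spermidine acetyltransferase, had 19.7, 19.6 and 20.3 FPKM in ISRIB, all above the 17.1, 18.6 and 15.8 FPKM in Control (0.21, limma adjusted p = 0.180). Oat, which takes ornithine towards proline and glutamate, had 0.12 (limma adjusted p = 0.299). The urea cycle genes Otc, Cps1 and Nags had means under 1 FPKM. Of 9 tested genes of methylarginine formation and breakdown, 7 had a negative value. The arginine methyltransferases Prmt1 and Prmt6 had log2 fold changes of 0.12 and −0.09 (limma adjusted p = 0.242 and 0.481), and Prmt1 had 0.02 after removal of the length trend. The groups did not overlap for either, as for 22.8% of all genes. For Prmt6 the highest ISRIB and the lowest Control library were both at 13.4 FPKM after rounding. Among genes that remove nitric oxide or nitrosothiols, the reductase Adh5 had 0.08 and the haem protein Cygb −0.11.

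**Figure D4:**
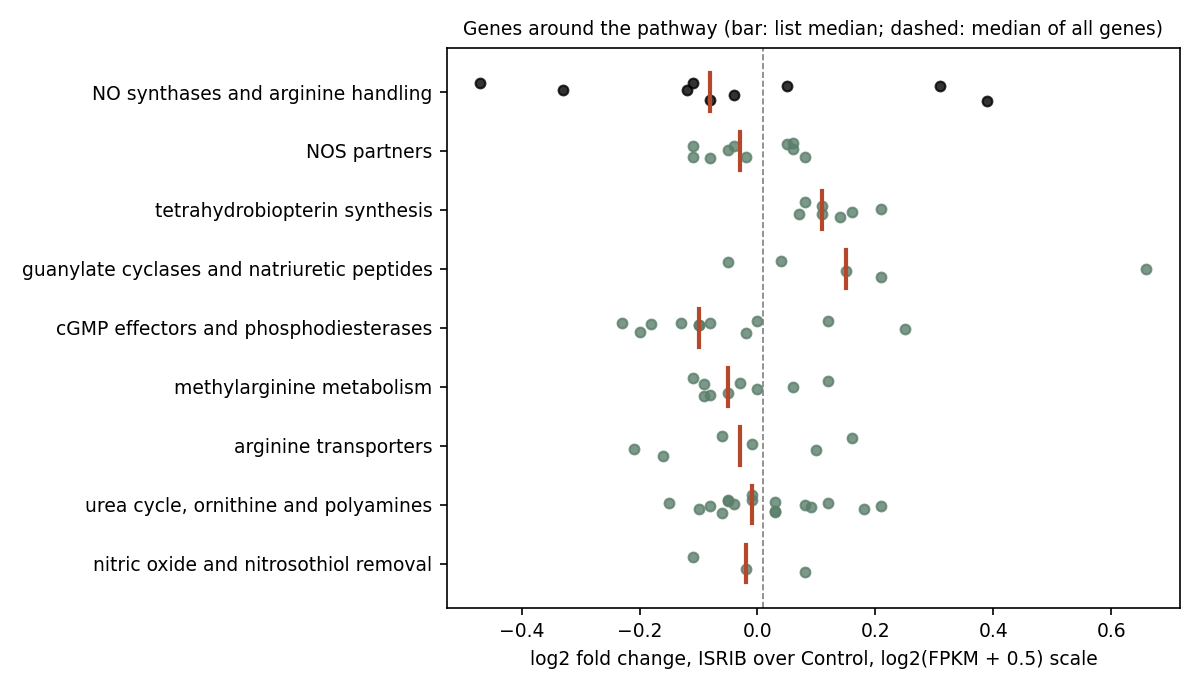
log2 fold change of ISRIB over Control on the log2(FPKM + 0.5) scale for each tested gene (points) of the 9 genes described above and of 8 lists around them, with the list median (bar) and the median of all genes, 0.01 (dashed line); points are spread vertically only to separate them. List medians run from −0.10 for cyclic GMP effectors to 0.15 for cyclases and peptides, with Nppc at 0.66.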

How the data were processed

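The authors deposited FPKM values for 26329 genes, one column per library. Per the submitters' processing notes, fastp, HISAT2, HTSeq, R 3.2.0, DESeq2 and build mm10 were used; no source used here gives the annotation or the strand setting. Groups came from the sample titles. Members and lists were chosen with earlier results of these data known.

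log2(FPKM + 0.5) was fitted with limma 3.58.1 in R 4.3.3 (2 groups, empirical Bayes with intensity trend, two-sided, Benjamini-Hochberg) on 12922 genes, those averaging at least 1 FPKM. The pseudocount of 0.5 understates fold changes of low genes. Genes named by rule are the 10, the 2 with the smallest p in each pathway list, and the 3 nearest to Nos1; one of them is not reported here. The self-test on simulated data recovered known log2 changes of 0.5 and 1. Smaller changes were not simulated, and every gene was given the same spread between libraries beyond counting noise.

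Whole reads were recovered from the FPKM (100.0% of genes within 0.01 read; implied gene lengths whole for 26321). Replicates differed beyond counting noise (chi-square per gene 9.01 to 23.3). Counting errors cover counting only. Positions are from GENCODE M21 (GRCm38, the build mm10 names) and upstream sequences from RefSeq. The alternatives were other pseudocounts, filters, scalings and fits, a replicate block, removal of a loess trend on length (span 0.5), voom and leaving out each library. Tables and figures used Python 3.11.15, pandas 2.3.3 and matplotlib 3.10.9.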

Additional observations from a re-analysis of the deposited data

How the results depend on the processing

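Nos1, Nos3, Asl and Arg2 kept their direction under every alternative run, with log2 fold changes of −0.53 to −0.38, −0.38 to −0.28, 0.26 to 0.36 and 0.25 to 0.53. Their groups did not overlap, so leaving out a single library could hardly turn the sign. Nor was the direction reversed for Nos2 (−0.21 to −0.00), Pde5a (−0.14 to −0.03) or Prkg1 (−0.56 to −0.15). The 0 genes called over the whole table became 8 with a minimum mean of 5 FPKM, 19 after TPM rescaling (6 higher, 13 lower) and 120 in voom (40 higher, 80 lower). Chosen after seeing the data, voom with the length trend removed called 23 genes, and voom without single libraries called 0 to 365: 365 without ISRIB replicate 1, 22 without ISRIB replicate 2 or 3, 8 without Control replicate 3, and 0 without Control replicate 1 or 2. In that voom series Nos1, Nos3 and Asl passed without ISRIB replicate 1 (adjusted p = 0.0230, 0.0498 and 0.0427) and not without any other library, up to 0.178, 0.189 and 0.237. Same-numbered libraries did not deviate together (r = −0.19, −0.091 and 0.192), and with the replicate number as a block 11 genes were called. Direction changed for Ass1 without ISRIB replicate 1 (0.05 in both fits, and as low as −0.24 without another library). It changed for Ddah1 without ISRIB replicate 2 (0.02 in both, and as low as −0.08 without another library). Arg1 turned to −0.01 with the length trend removed and −0.03 in voom with that trend removed (0.04 in voom alone), to −0.36 in limma and −0.45 in voom without ISRIB replicate 1, likewise to −0.16 and −0.23 without Control replicate 2, and reached 0.45 and 0.53 without ISRIB replicate 3. Depth limits Prkg1 and the arginases most. The cause of these shifts was not tested.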
